A study of Mus musculus with 16 samples.

Results

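The transcripts of the liver's main conjugating enzymes were followed across 16 mouse livers. They are the UDP-glucuronosyltransferases (UGT), the cytosolic sulfotransferases (SULT) and the cytosolic glutathione S-transferases (GST). Members were taken by gene symbol from the deposited table of read counts, where they are 52 of 16973 genes, and the rule itself uses no measured value. They are 20 UGT genes (9 UGT1A, 2 UGT2A, 7 UGT2B and 2 UGT3A), 12 SULT genes (5 SULT1, 4 SULT2, 1 SULT3 and 2 others) and 20 GST genes (4 alpha, 7 mu, 2 omega, 2 pi, 4 theta and 1 zeta). The gene named Ugt2a1 in the table carries an identifier that GENCODE M21 calls Ugt2a2. Conjugation makes fat-soluble compounds easier to excrete. UGT enzymes of the endoplasmic reticulum join glucuronic acid to bilirubin, steroids and drugs, SULT enzymes of the cytosol transfer sulfate to phenols, steroids and bile acids, and GST enzymes join glutathione to reactive compounds. In liver many of these genes answer to the receptors CAR and PXR, to the aryl hydrocarbon receptor and to the oxidant-responsive factor NRF2, and hepatocyte factors such as HNF4A maintain their expression.

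The livers came from male C57BL/6 mice in 4 groups of 4. One line held livers with a hepatocyte-specific METTL3 knockout and METTL3 flox/flox livers, and the other held livers labelled as hepatocyte-specific RPN11 knockout and RPN11 flox/flox livers. METTL3 is the catalytic subunit of the enzyme that writes N6-methyladenosine on mRNA, and RPN11, encoded by Psmd14, is the deubiquitylating subunit of the proteasome. The series title sets the work in nonalcoholic fatty liver disease, and the design compares each knockout with its own flox/flox livers. All mice were kept free of specific pathogens on a 12-hour light cycle with free food and water. The sources used here give no diet, age or driver of the deletion, and do not say whether the groups were littermates. The livers are numbered within each group and were taken as separate mice, so every p-value measures the spread between these livers, which may be in part technical.

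Total counts ran from 15980959 to 29029592 per liver, and the 52 genes took 0.897% to 1.19% of them. Mettl3 was at 6.58, 6.21, 6.41 and 6.54 CPM (read counts relative to library sizes that were scaled by the trimmed mean of M values, TMM) in METTL3 knockout livers, against 13.7, 17.2, 17.7 and 14.4 CPM in METTL3 flox/flox livers (log2 fold change -1.29 ± 0.17 SE, Benjamini-Hochberg adjusted p = 0.000647 by the quasi-likelihood test of edgeR, exact two-sided permutation p = 0.0286, the smallest possible). In livers labelled RPN11 knockout Psmd14 was not reduced, at 77.9 ± 12.3 CPM, against 78.2 ± 3.62 CPM in RPN11 flox/flox livers (SD, n = 4 each, exact two-sided permutation p = 0.857). Counts over a whole gene include exons outside a deleted part, and these livers are called by their label throughout. TMM factors were 0.966, 1.26, 1.22 and 1.46 in METTL3 knockouts 1 to 4, and 0.883 to 0.936 in METTL3 flox/flox livers. Of unscaled counts the 52 genes took 0.962% to 1.19% in METTL3 knockouts and 1.03% to 1.11% in METTL3 flox/flox livers. Their summed scaled level was 12058, 9388, 7937 and 6611 CPM in METTL3 knockouts 1 to 4, and 11094 to 12272 CPM in METTL3 flox/flox livers. No call was made on unscaled counts, so calls and overlaps here rest on this scaling. The summed level of 6 hepatocyte markers ran over 61401 to 141180.0 CPM in METTL3 knockouts, 138959.8 to 165569.8 CPM in METTL3 flox/flox livers, 96634 to 130861 CPM in livers labelled RPN11 knockout and 138405 to 164165 CPM in RPN11 flox/flox livers. Replicate 4 of each knockout group also held brain transcripts: 15 brain markers summed to 413 CPM in METTL3 knockout 4 and 597 CPM in labelled RPN11 knockout 4, and to between 16.7 and 36.4 CPM in the other 14 livers. Labelled RPN11 knockouts 1 and 3 were far closer to each other (chi-square per gene 8.15) than any other pair within a group (28.7 or more), and sampling noise alone gives 1.

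The order of levels in flox/flox livers shows which of these transcripts were the most abundant. Levels per kilobase were computed over the full exon length of each gene, in the 8 flox/flox livers of both lines. For UGT1A genes only exon bases that no other annotated gene shares on the same strand were used. Gsta3, an alpha-class transferase, stood at 634 ± 47.4 CPM per kilobase and Gstm1, the main mu-class transferase, at 622 ± 154 CPM per kilobase (SD, n = 8). Ugt2b5 followed at 501 ± 44.3, the phenol sulfotransferase gene Sult1a1 at 456 ± 80.1 and Ugt2b36 at 449.8 ± 27.8 CPM per kilobase. A middle group from Ugt2b1 (284 ± 39.0 CPM per kilobase) to Gstt1 (147 ± 24.5 CPM per kilobase) held, in falling order, Ugt1a1, Sult1d1, Ugt2a3, Ugt2b34, Gstz1, Gstp1 and Ugt3a2. Each gene's range over the 8 livers overlapped that of its next lower neighbour, except below Ugt2b36 and below Gstt1. The other members stood at 57.5 CPM per kilobase (Gsta4) or less. The gene named Ugt2a1 and Gstt4 had no count in these 8 livers, where a count of 0 allows a level of 0.117 to 0.138 CPM, from 3 counts in the largest and the smallest scaled library among them.

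In METTL3 knockout livers conjugation genes were called in both directions. The genes called higher were Ugt1a9, 3 UGT2B genes, 3 mu-class GST genes and 1 pi-class GST gene. Those called lower were Ugt1a6a, Ugt2a3, 4 sulfotransferase genes, 3 theta-class GST genes and Gsta3, Gsto1 and Gstz1. The comparison asks which conjugation transcripts differ between METTL3 knockout and METTL3 flox/flox livers. Of the 52 members, 43 passed the filter on low counts and were tested. At an adjusted p under 0.05, the threshold for a call here, 8 were higher, 12 lower and 23 not past it. The called share was 46.5%, beside 30.5% of all 12450 tested genes, with 15.2% of all genes higher and 15.3% lower. The 4 knockout livers lay wholly above the flox/flox livers in 7 tested members and wholly below them in 12, beside 15.5% and 16% of all tested genes and 31.5% for both directions together. The median log2 fold change was -0.20 over the tested members and 0.04 over all tested genes, and single members ranged from -2.77 to 4.36. Of the 12 members called lower, 11 or 12 remained past the threshold whichever single liver was left out. Without METTL3 knockout 1 the number called lower was 19, and the 7 added were Ugt1a1, Ugt1a5, Ugt1a6b, Ugt2b36, Ugt3a1, Ugt3a2 and Sult5a1.

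**Figure D1:**
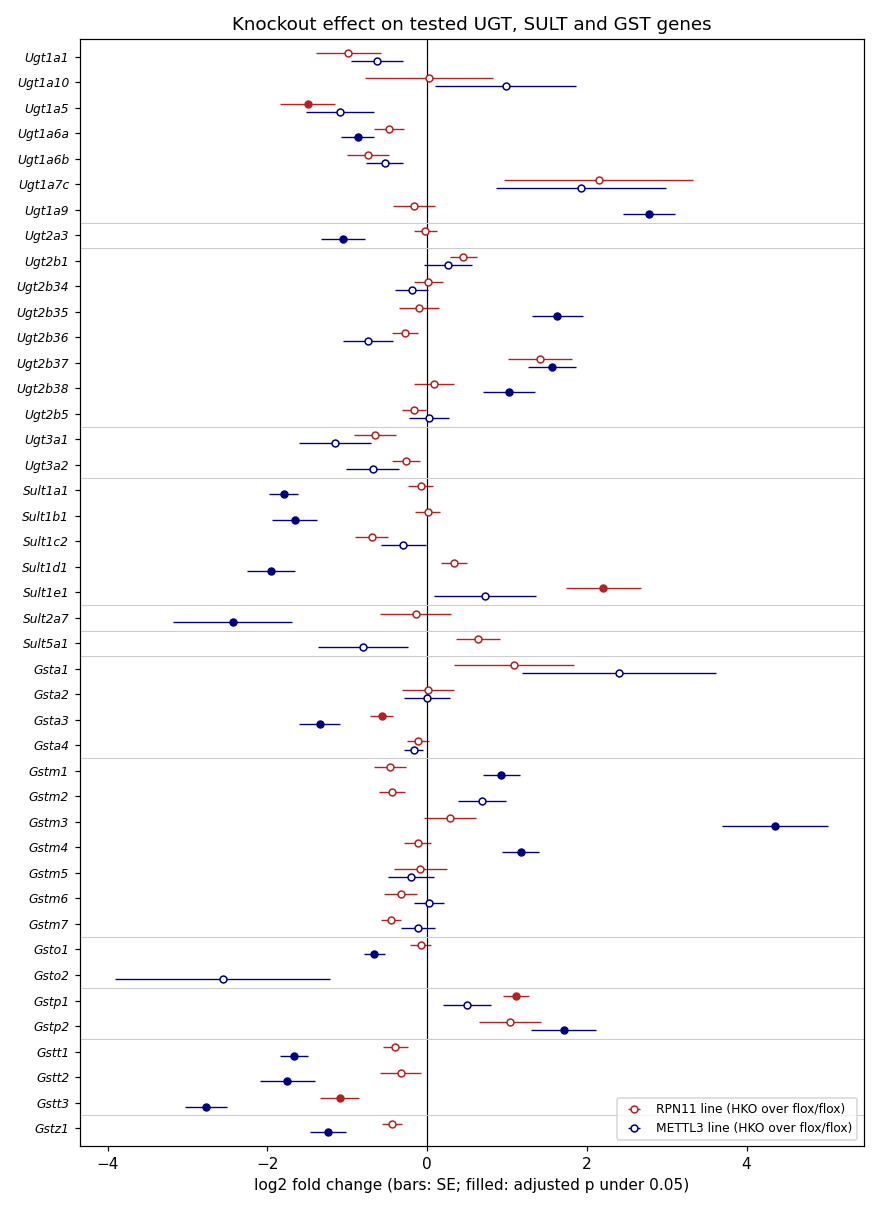
Log2 fold change (horizontal axis, bars are the SE) of each tested UGT, SULT and GST gene, with the RPN11 line in red and the METTL3 line in blue, knockout over flox/flox, and filled points past an adjusted p of 0.05. METTL3 knockout effects ran from -2.77 for Gstt3 to 4.36 for Gstm3, and 20 of the 43 blue points and 5 of the 42 red points are filled.

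Start regions are printed for a few members, with the reason beside each. RefSeq windows from 250 bases before to 50 bases after the start (GRCm38.p6) were matched by symbol for 44 of the 52 members, and 3 motifs were searched on both strands. The antioxidant response core TGACNNNGC was in 2 of 44 member windows and 12.4% of all 32851 windows, and the core of the aryl hydrocarbon receptor's element, GCGTG, was in 9 of 44 and 32.4% of all. The letters AGGTCA, a half-site of nuclear receptors, were in 9 of 44 and 16.3% of all. The last 4 letters of AGGTCA are the first 4 of the antioxidant core on the other strand, so 1 stretch can match both. AGGTCA was in 4 of the 8 windows of members called higher in METTL3 knockouts (Ugt1a9, Ugt2b35, Ugt2b37 and Ugt2b38). It was in 1 of 10 called lower (Sult1b1) and in 4 of 20 not called (Ugt1a7c, Ugt2b5, Ugt2b36 and Sult1e1). These counts are descriptions with no test, a match is not a binding site, and the closely related Ugt2b genes are not independent of each other.

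The UGT1A genes were taken first. They form 1 locus on the plus strand of chromosome 1 (GRCm38), in which 9 genes each start with a first exon of their own and share 4 exon blocks of 1311 bases between 88215044 and 88218997. Ugt1a1 makes the enzyme that conjugates bilirubin, and the others differ in the phenols and drugs that they accept. Reads in the shared exons belong to no single gene, and the deposited counts hold 62011 reads over the 16 livers for Ugt1a1, 12 for Ugt1a8 and 12 for Ugt1a2, so shared reads were not added to every gene. The sources used here do not say how they were divided or whether the counting used strand, and the antisense gene Gm20528 overlaps exons of the locus. All values of single UGT1A genes are uncertain to that extent.

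Ugt1a9, whose first exon lies 144 kb before the first shared exon, was at 54.9, 58.1, 36.2 and 36.3 CPM in METTL3 knockouts, against 6.71, 4.71, 11.6 and 4.15 CPM in METTL3 flox/flox livers. All knockout livers were above all flox/flox livers, 6.85-fold higher on the fitted scale (log2 fold change 2.78 ± 0.33 SE, adjusted p = 0.000542 by edgeR). Ugt1a6a, a phenol-conjugating form, was at 57.0, 41.1, 36.6 and 24.8 CPM in the knockouts, against 65.5, 76.4, 78.5 and 71.0 CPM in flox/flox livers. It was lower without overlap (log2 fold change -0.87 ± 0.20 SE, adjusted p = 0.00859 by edgeR). By counts of stretches of 50 bases, Ugt1a6b shares 79.6% of its transcript sequence with Ugt1a6a, so the split of reads between them is uncertain. Ugt1a6b was not called (log2 fold change -0.53 ± 0.23 SE). Ugt1a1 was at 185, 99.3, 94.4 and 50.1 CPM in the knockouts, against 184, 124, 159 and 194 CPM in flox/flox livers. Only knockout 1 reached the flox/flox range, and the difference did not pass the threshold (log2 fold change -0.63 ± 0.33 SE, adjusted p = 0.171 by edgeR), while without that liver it did (log2 fold change -1.01, edgeR adjusted p = 0.00752). Summed over the 9 genes, UGT1A stood at 351, 233, 195 and 139 CPM in the knockouts, against 312, 256, 307 and 322 CPM in flox/flox livers (log2 fold change -0.38, edgeR adjusted p = 0.236). The calls of Ugt1a9 and Ugt1a6a were thus made on single genes, and the summed locus had none. Ugt1a9 took 15.6, 24.9, 18.6 and 26.2% of the UGT1A sum in the knockouts, against 2.15, 1.84, 3.77 and 1.29% in flox/flox livers, with no overlap. The start regions of Ugt1a9, with AGGTCA in capitals, and of Ugt1a6a, which holds none of the 3 motifs, are printed 5′ to 3′, as are all below, because these are the called genes of the locus.
Ugt1a9, chr1:88070529-88070828, plus strand: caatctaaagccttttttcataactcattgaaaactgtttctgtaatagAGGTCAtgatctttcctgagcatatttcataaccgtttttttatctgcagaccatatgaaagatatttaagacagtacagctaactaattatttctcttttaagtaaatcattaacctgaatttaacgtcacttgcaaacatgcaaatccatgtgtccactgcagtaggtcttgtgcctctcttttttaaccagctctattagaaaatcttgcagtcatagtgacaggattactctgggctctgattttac
Ugt1a6a, chr1:88134559-88134858, plus strand: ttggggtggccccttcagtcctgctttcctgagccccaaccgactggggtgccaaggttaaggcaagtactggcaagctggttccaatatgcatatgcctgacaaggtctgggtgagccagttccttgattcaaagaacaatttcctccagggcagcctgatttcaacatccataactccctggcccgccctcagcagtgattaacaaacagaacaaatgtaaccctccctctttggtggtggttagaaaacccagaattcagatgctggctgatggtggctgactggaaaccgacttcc

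**Figure D2:**
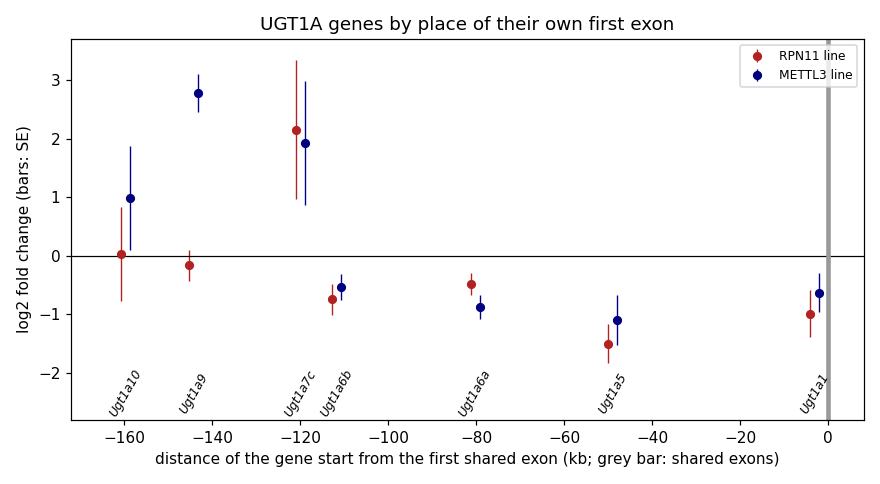
Log2 fold change (vertical axis, bars are the SE) of the 7 tested UGT1A genes against the distance of each gene's start from the first shared exon (horizontal axis, kb), in the RPN11 line (red) and the METTL3 line (blue). Ugt1a9, 144 kb before the shared exons, was at 2.78 in the METTL3 line and -0.17 in the RPN11 line, and the 4 tested genes nearest to the shared exons lay below 0 in both lines.

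UGT2 genes lie mostly in a cluster on chromosome 5 and conjugate steroids, bile acids and drugs. Ugt2b35, Ugt2b37 and Ugt2b38 were called higher in METTL3 knockouts, and Ugt2a3 was called lower. Ugt2b35 was at 228, 169, 123 and 108 CPM in the knockouts, against 58.1, 29.3, 39.9 and 75.1 CPM in flox/flox livers. The groups did not overlap, and the fitted ratio was 3.10 (log2 fold change 1.63 ± 0.32 SE, adjusted p = 0.00515 by edgeR). Ugt2b37, a gene of low level, was at 9.09, 12.0, 6.61 and 12.3 CPM, against 4.99, 3.19, 2.46 and 2.89 CPM in flox/flox livers. It was higher without overlap (log2 fold change 1.57 ± 0.30 SE, adjusted p = 0.0034 by edgeR). Ugt2b38 was at 89.5, 59.4, 70.7 and 32.8 CPM, against 39.4, 17.9, 27.8 and 38.7 CPM in flox/flox livers. Its groups overlapped through knockout 4, and its call (log2 fold change 1.03 ± 0.32 SE, adjusted p = 0.0384 by edgeR) was lost when any liver but knockout 4 was left out, with adjusted p up to 0.096. In unscaled counts knockout 4 had 763 of 15980959 for Ugt2b38. That share was larger than the highest flox/flox share, 952 of 26362139 in flox/flox 4. The overlap of Ugt2b38 therefore rests on the library scaling. By counts of stretches of 50 bases, Ugt2b38 shares 37.4% of its transcript sequence with other genes and Ugt2b37 18.3%, mostly with Ugt2b5, so the split of reads among these 3 is uncertain. Ugt2b5 itself, the UGT2B gene with the highest mean level, was at 1469, 1007, 773 and 592 CPM in the knockouts, against 1010.4, 859, 908 and 981 CPM in flox/flox livers, with overlap and no call (log2 fold change 0.03 ± 0.25 SE, adjusted p = 0.942 by edgeR). For Ugt2b1, Ugt2b34 and Ugt2b36, log2 fold changes of 0.26, -0.19 and -0.74 did not pass the threshold (lowest edgeR adjusted p = 0.0922). Ugt2a3 was at 378, 212, 191 and 124 CPM in the knockouts, against 488, 429, 483 and 472 CPM in flox/flox livers. Every knockout liver was below every flox/flox liver, 2.08-fold lower on the fitted scale (log2 fold change -1.05 ± 0.27 SE, adjusted p = 0.0145 by edgeR). The UGT3A genes, which use other sugar donors than glucuronic acid, did not pass the threshold. Ugt3a2 was at 596, 276, 269 and 152 CPM in the knockouts, with knockout 1 above all flox/flox livers and the other 3 below them, against 541, 445, 539.7 and 544 CPM in flox/flox livers (log2 fold change -0.68 ± 0.33 SE, adjusted p = 0.138 by edgeR). Without knockout 1 it was past the threshold (log2 fold change -1.15, edgeR adjusted p = 0.000993). Summed UGT counts did not separate the groups, at 6682, 4213, 3685 and 2469 CPM in the knockouts, against 5466, 4579, 4834 and 5047 CPM in flox/flox livers. AGGTCA was also in the windows of Ugt2b5 and Ugt2b36, which were not called. The start regions of a UGT2 gene called higher, Ugt2b35 with AGGTCA in capitals, and of the one called lower, Ugt2a3, are set side by side.
Ugt2b35, chr5:87000610-87000909, plus strand: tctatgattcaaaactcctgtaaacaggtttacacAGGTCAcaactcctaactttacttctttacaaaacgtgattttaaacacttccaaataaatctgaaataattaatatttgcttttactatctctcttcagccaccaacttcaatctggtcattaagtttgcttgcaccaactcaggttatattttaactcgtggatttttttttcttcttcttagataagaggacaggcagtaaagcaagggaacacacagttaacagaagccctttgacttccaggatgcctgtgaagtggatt
Ugt2a3, chr5:87337146-87337445, minus strand: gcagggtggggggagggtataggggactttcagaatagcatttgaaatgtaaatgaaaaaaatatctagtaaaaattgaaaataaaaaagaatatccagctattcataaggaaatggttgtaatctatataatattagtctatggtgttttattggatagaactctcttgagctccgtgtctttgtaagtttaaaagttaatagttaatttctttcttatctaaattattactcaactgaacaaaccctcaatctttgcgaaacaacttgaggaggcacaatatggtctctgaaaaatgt

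Sulfotransferase genes were called in 1 direction in METTL3 knockout livers. Of 7 tested SULT genes 4 were lower, 0 were higher and 3 did not pass the threshold, beside 15.3% of all tested genes lower. Summed over all 12 members they stood at 537, 353, 383 and 304 CPM in the knockouts, against 1422, 1522, 1464 and 1136 CPM in flox/flox livers, with no overlap. Sult1a1, which sulfates phenols, was at 225, 204, 234 and 186 CPM in the knockouts, against 681, 880.0, 797 and 594 CPM in flox/flox livers. It was 3.47-fold lower with a narrow spread in the knockouts (log2 fold change -1.80 ± 0.18 SE, adjusted p = 0.000172 by edgeR). Sult1d1, a sulfotransferase of catecholamines and related phenols in the mouse, was at 257, 116, 117 and 88.2 CPM, against 645, 564, 573 and 452 CPM in flox/flox livers. It was 3.87-fold lower, and knockout 1 was the highest of the knockouts (log2 fold change -1.95 ± 0.30 SE, adjusted p = 0.00128 by edgeR). Sult1b1, which acts on thyroid hormones, was at 37.4, 15.9, 18.8 and 12.9 CPM, against 71.3, 60.8, 69.5 and 65.3 CPM in flox/flox livers. The groups did not overlap (log2 fold change -1.66 ± 0.28 SE, adjusted p = 0.0027 by edgeR). Sult2a7, a gene of the hydroxysteroid class, was at 0.885, 1.08, 0.148 and 0.0860 CPM, against 1.95, 2.18, 3.69 and 4.23 CPM in flox/flox livers. All knockouts were below all flox/flox livers at these low levels (log2 fold change -2.44 ± 0.74 SE, adjusted p = 0.0277 by edgeR), and leaving out knockout 3, flox/flox 3 or flox/flox 4 ended the call (adjusted p up to 0.0733). The estrogen sulfotransferase gene Sult1e1, Sult1c2 and Sult5a1 did not pass the threshold, with log2 fold changes of 0.73, -0.30 and -0.80. Sult5a1 was at 11, 4.19, 2.08 and 1.25 CPM in the knockouts, against 10.4, 6.22, 7.61 and 7.81 CPM in flox/flox livers, and without knockout 1 it was called lower (log2 fold change -1.66, edgeR adjusted p = 0.00588). The remaining 5, Sult2a1, Sult2a2, Sult2b1, Sult3a1 and Sult4a1, had too few reads to be tested. The start regions of the most abundant pair, Sult1a1 and Sult1d1, follow, with the reverse complement of GCGTG in capitals in Sult1d1.
Sult1a1, chr7:126676369-126676668, minus strand: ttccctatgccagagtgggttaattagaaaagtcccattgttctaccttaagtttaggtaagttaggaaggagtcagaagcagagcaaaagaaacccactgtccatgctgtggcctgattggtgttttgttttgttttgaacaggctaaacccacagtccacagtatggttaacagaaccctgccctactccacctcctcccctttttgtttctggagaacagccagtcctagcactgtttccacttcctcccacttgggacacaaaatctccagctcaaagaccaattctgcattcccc
Sult1d1, chr5:87568957-87569256, minus strand: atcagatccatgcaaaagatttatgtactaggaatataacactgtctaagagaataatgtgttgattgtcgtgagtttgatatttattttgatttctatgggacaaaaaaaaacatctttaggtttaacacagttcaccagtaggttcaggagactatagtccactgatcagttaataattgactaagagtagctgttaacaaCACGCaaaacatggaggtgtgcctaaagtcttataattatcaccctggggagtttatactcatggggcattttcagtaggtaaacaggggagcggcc

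Among the GST genes, 3 of 7 tested mu genes were called higher and 3 of 3 tested theta genes lower in METTL3 knockout livers. Of all tested genes 15.2% were called higher and 15.3% lower. The mu genes, a cluster on chromosome 3, summed to 1733, 2739, 1946 and 2469 CPM in the knockouts, against 812, 1280.0, 1287 and 824 CPM in flox/flox livers, without overlap. No mu gene was called lower, and 4 did not pass the threshold. Gstm3 changed most of the tested members. It was at 83.4, 435, 305 and 518 CPM in the knockouts, against 6.98, 21.6, 23.6 and 13.7 CPM in flox/flox livers. Knockout 1 was well below the other 3 knockouts and still above every flox/flox liver, and the fitted ratio was 20.5 (log2 fold change 4.36 ± 0.66 SE, adjusted p = 0.00322 by edgeR). Gstm3 took 4.81, 15.9, 15.7 and 21% of the mu-class sum in the knockouts, against 0.860, 1.69, 1.83 and 1.66% in flox/flox livers. By stretches of 50 bases it shares 28.8% of its sequence with other genes, 16% with Gm8834, and Gstm1 shares 18.9%. Gstm1 was at 1484, 2118, 1445 and 1808 CPM in the knockouts, against 703, 1114, 1086 and 697 CPM in flox/flox livers, with no overlap and a larger gain in mean CPM than any other member (log2 fold change 0.93 ± 0.23 SE, adjusted p = 0.0113 by edgeR). Gstm4 was at 34.8, 32.8, 26.6 and 24.3 CPM, against 9.44, 10.2, 19.9 and 13.1 CPM in flox/flox livers, again without overlap (log2 fold change 1.17 ± 0.23 SE, adjusted p = 0.00411 by edgeR). Gstm2 was at 39.0, 73.6, 87.4 and 57.8 CPM, against 25.5, 43.0, 58.5 and 33.2 CPM in flox/flox livers; its groups overlapped and it was not called (log2 fold change 0.69 ± 0.30 SE, adjusted p = 0.105 by edgeR). Gstm5, Gstm6 and Gstm7 had log2 fold changes of -0.20, 0.02 and -0.12, none past the threshold. None of the 3 motifs was in the window of Gstm3, printed here as the start region of the member that changed most, and Gstm1 held GCGTG, in capitals.
Gstm3, chr3:107969125-107969424, minus strand: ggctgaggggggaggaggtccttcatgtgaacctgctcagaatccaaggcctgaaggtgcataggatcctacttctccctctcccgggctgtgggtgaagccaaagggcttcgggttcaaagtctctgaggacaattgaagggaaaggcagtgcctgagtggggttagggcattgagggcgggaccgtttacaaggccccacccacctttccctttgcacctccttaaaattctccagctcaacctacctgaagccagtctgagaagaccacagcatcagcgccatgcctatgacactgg
Gstm1, chr3:108017924-108018223, minus strand: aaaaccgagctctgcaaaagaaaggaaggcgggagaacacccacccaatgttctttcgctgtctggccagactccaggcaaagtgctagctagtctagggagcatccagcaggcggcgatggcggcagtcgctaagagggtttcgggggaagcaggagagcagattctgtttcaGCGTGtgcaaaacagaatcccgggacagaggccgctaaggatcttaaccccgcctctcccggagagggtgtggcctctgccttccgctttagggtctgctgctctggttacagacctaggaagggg

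**Figure D3:**
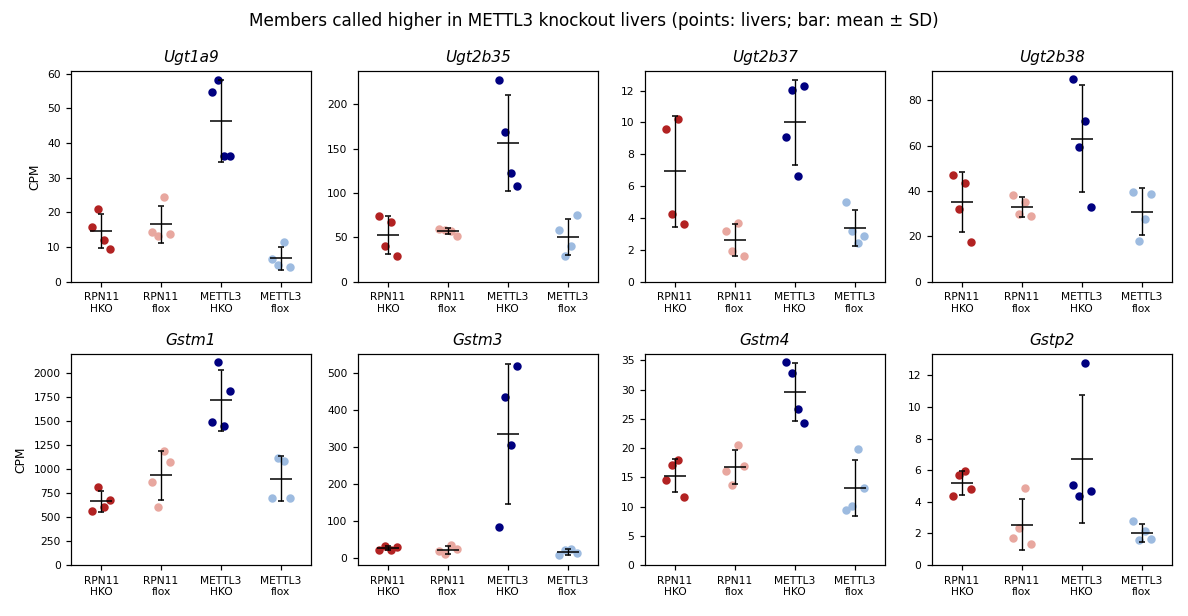
CPM (vertical axes, own scale in each panel) of the 8 members called higher in METTL3 knockout livers, by group, with 1 point per liver and bars for the mean ± SD of 4 livers. Gstm3 averaged 335 CPM in METTL3 knockouts and 16.5 CPM in METTL3 flox/flox livers, while the groups of the RPN11 line averaged 26.2 CPM in labelled knockouts and 21.9 CPM in flox/flox livers.

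The theta class, which handles small halogenated compounds, was called lower in METTL3 knockouts in each of its 3 tested genes, beside 15.3% of all tested genes. Gstt3 was at 12.9, 6.41, 7.30 and 5.12 CPM in the knockouts, against 48.9, 61.7, 62.3 and 43.7 CPM in flox/flox livers. It was 6.84-fold lower, without overlap (log2 fold change -2.77 ± 0.26 SE, adjusted p = 0.000172 by edgeR), and 12.5% of its sequence, in stretches of 50 bases, is shared with other genes, mostly with the overlapping gene Gm20441. Gstt1 was at 75.9, 77.2, 85.7 and 55.1 CPM, against 226, 266, 259.9 and 184 CPM in flox/flox livers. It was 3.18-fold lower without overlap (log2 fold change -1.67 ± 0.18 SE, adjusted p = 0.000216 by edgeR). Gstt2 was at 14.6, 8.51, 4.27 and 7.66 CPM, against 20.2, 42.0, 28.3 and 27.1 CPM in flox/flox livers, and was lower without overlap (log2 fold change -1.75 ± 0.35 SE, adjusted p = 0.005 by edgeR). Gstt4 had 7 counts over the 16 livers and was not tested.

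Gsta3, the most abundant member, also had the largest loss in mean CPM of the members. It was at 1563, 1087, 968 and 636 CPM in METTL3 knockouts, against 2821, 2701, 2901 and 2369 CPM in flox/flox livers, 2.54-fold lower (log2 fold change -1.35 ± 0.25 SE, adjusted p = 0.00313 by edgeR). The other alpha genes did not pass the threshold. Gsta1 was at 4.35, 7.63, 4.27 and 18.6 CPM in the knockouts, against 0, 0.311, 5.19 and 1.14 CPM in flox/flox livers, with a high reading in knockout 4 and overlap (log2 fold change 2.40 ± 1.21 SE, adjusted p = 0.171 by edgeR). Gsta1 shares 90.5% and Gsta2 49.8% of their sequence with other genes, so their counts are uncertain. The zeta gene Gstz1, an enzyme of tyrosine breakdown, was at 572, 392, 375 and 259 CPM, against 949, 899, 1023 and 905 CPM in flox/flox livers, and was 2.37-fold lower (log2 fold change -1.24 ± 0.22 SE, adjusted p = 0.00246 by edgeR). The omega gene Gsto1 was at 47.9, 35.0, 32.5 and 41.5 CPM, against 63.5, 61.0, 64.3 and 59.4 CPM in flox/flox livers, the smallest change of the 12 called lower but without overlap (log2 fold change -0.66 ± 0.14 SE, adjusted p = 0.00484 by edgeR). In unscaled counts knockout 4 had 966 of 15980959 for Gsto1. That share was larger than the highest flox/flox share, 1462 of 25062848 in flox/flox 3. The missing overlap of Gsto1 therefore rests on the library scaling. Among pi genes, Gstp2 was at 5.04, 4.36, 12.8 and 4.69 CPM, against 2.81, 1.56, 2.16 and 1.67 CPM in flox/flox livers, and was higher with knockout 3 far above the others (log2 fold change 1.71 ± 0.41 SE, adjusted p = 0.0091 by edgeR). Its near-copy Gstp1, which has most of the reads, was at 731, 374, 356 and 270.4 CPM, against 358, 238, 228 and 404 CPM in flox/flox livers, and was not called (log2 fold change 0.49 ± 0.30 SE, adjusted p = 0.231 by edgeR). In unscaled counts the lowest knockout share of Gstp1 was 6286 of 15980959 in knockout 4. It was larger than the highest flox/flox share, 9919 of 26362139 in flox/flox 4, so the overlap of Gstp1 rests on the scaling. The sum of the pi genes was not past the threshold either (log2 fold change 0.51, edgeR adjusted p = 0.213). The start region of Gsta3 is shown for the most abundant member and holds the antioxidant response core, in capitals.
Gsta3, chr1:21240335-21240634, plus strand: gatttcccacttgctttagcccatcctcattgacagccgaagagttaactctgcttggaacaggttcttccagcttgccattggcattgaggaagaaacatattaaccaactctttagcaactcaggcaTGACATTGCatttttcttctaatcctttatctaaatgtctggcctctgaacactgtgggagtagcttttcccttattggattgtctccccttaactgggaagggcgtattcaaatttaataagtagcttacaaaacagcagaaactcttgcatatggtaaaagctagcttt

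**Figure D4:**
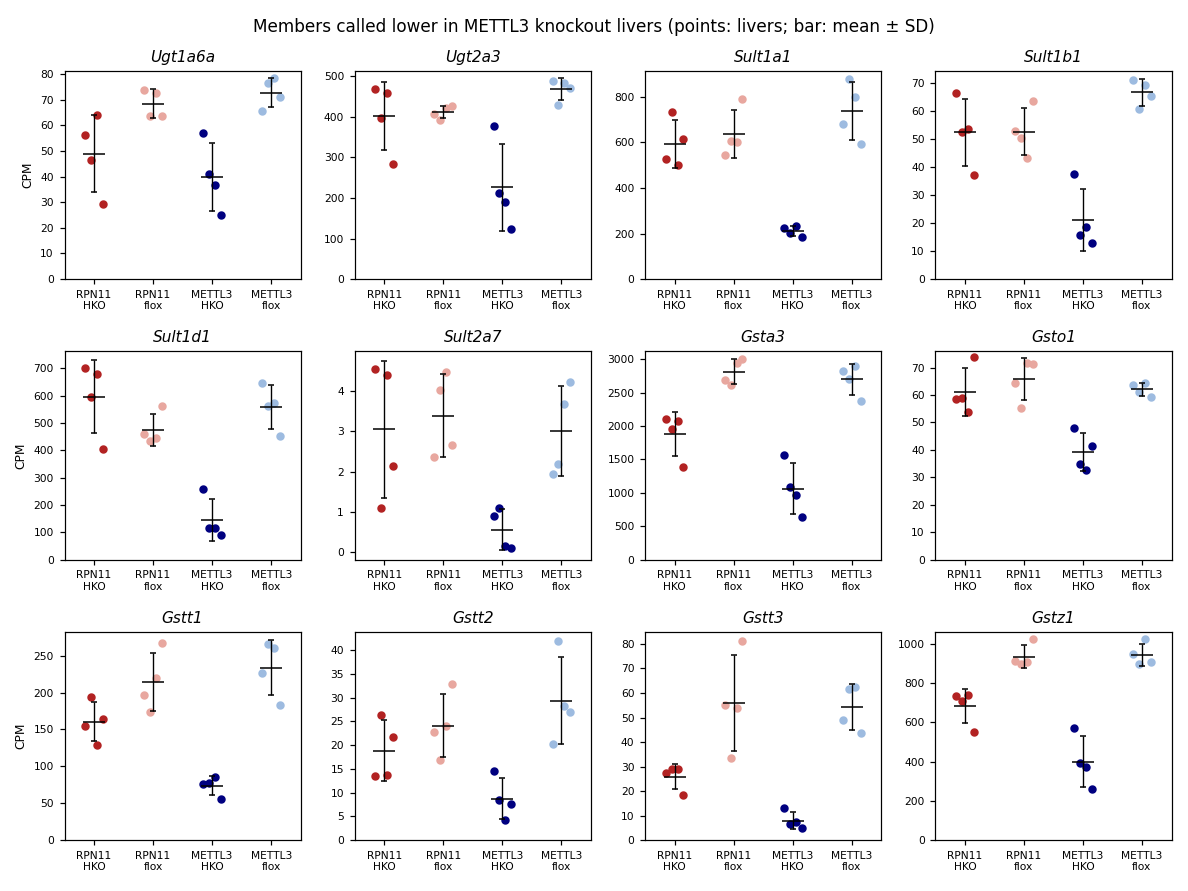
CPM (vertical axes, own scale in each panel) of the 12 members called lower in METTL3 knockout livers, by group, with 1 point per liver and bars for the mean ± SD of 4 livers. In each panel the 4 METTL3 knockout livers lie below the 4 METTL3 flox/flox livers, as for Sult1a1 with a mean of 212 CPM in knockouts and 738 CPM in flox/flox livers.

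Individual knockout livers took repeated places in these ranges. METTL3 knockout 1 was the highest knockout liver in 9 of the 12 members called lower, and knockout 4 was the lowest in 10 of them. Over all 43 tested members, which include these 12, knockout 1 was the highest in 26 and knockout 4 the lowest in 27. Among the 8 members called higher, knockout 1 was the highest in 3 and knockout 4 the lowest in 3. The hepatocyte marker sum was 141180.0 CPM in knockout 1, within the flox/flox range of 138959.8 to 165569.8 CPM, and 80229.8, 65935 and 61401 CPM in knockouts 2, 3 and 4. Counts of called markers stand beside 15.2% of all tested genes called higher and 15.3% called lower in this comparison. Of 6 hepatocyte markers 3 were called lower in the knockouts (Ttr, Serpina1c and Cyp2e1, -1.07, -1.47 and -1.42 on the log2 scale). All 4 tested macrophage markers (Vsig4, Clec4f, Marco and Cd68), 4 of 6 stellate markers (Col1a1, Lrat, Dcn and Reln), 2 of 5 endothelial markers (Kdr and Pecam1) and 2 of 5 cholangiocyte markers (Sox9 and Spp1) were called higher. The macrophage sum was 169 to 253 CPM in the knockouts and 69.4 to 107 CPM in flox/flox livers, and the stellate sum was 445 to 593 CPM in the knockouts and 311 to 362 CPM in flox/flox livers. The endothelial sum was 119 to 139.6 CPM in the knockouts and 86.3 to 119 CPM in flox/flox livers, and the cholangiocyte sum was 204, 197, 253 and 538 CPM in knockouts 1 to 4 and 66.5 to 142 CPM in flox/flox livers. No lymphocyte (4 tested), brain (8 tested) or kidney (1 tested) marker was called, 1 of 4 erythroid markers (Hbb-bs, -0.99) was lower, and both tested intestinal markers, Apoa4 and Fabp2, which hepatocytes also express, were lower. Fewer hepatocytes and less RNA per hepatocyte cannot be told apart in whole liver, and the part of cell makeup in the results was not tested. Without knockout 4, the liver with brain transcripts, 8 members were called higher and 12 lower, the same 20 as with it.

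Genes around the 3 reactions were read from lists of donors, transporters, receptors and related enzymes. Counts of called members are given beside the 30.5% of all genes called in this comparison, 15.2% higher and 15.3% lower. For glucuronidation, 1 of 4 genes that supply UDP-glucuronic acid was lower: Ugp2, which makes UDP-glucose, at 476 ± 134 CPM in METTL3 knockouts and 800.2 ± 35.7 CPM in flox/flox livers (SD, n = 4 each, log2 fold change -0.75 ± 0.20 SE, adjusted p = 0.0154 by edgeR). For sulfation, 2 of 8 tested genes were lower and 2 higher. The PAPS synthase gene Papss2 (-0.64 on the log2 scale) and the sulfate transporter gene Slc26a1 (-1.0) were lower, while the sulfate transporter gene Slc26a2 (1.02) and the phosphatase gene Impad1 (0.67) were higher. For glutathione, 3 of 12 tested genes were higher and 3 lower. Gclc, the catalytic subunit of the rate-limiting step of glutathione synthesis, was at 588 ± 148 CPM in the knockouts and 365 ± 41.8 CPM in flox/flox livers (SD, n = 4 each, log2 fold change 0.69 ± 0.20 SE, adjusted p = 0.0221 by edgeR). Ggct (1.15) and Hpgds (2.11) were also higher, and Oplah (-0.92), Chac2 (-0.41) and the microsomal transferase gene Mgst1 (-1.0) were lower. Of 14 tested enzymes of other conjugations none was higher and 7 were lower, which were the methyltransferase genes Nnmt (-2.20), Inmt (-1.36), Tpmt (-0.70) and Hnmt (-0.58), the epoxide hydrolase gene Ephx2 (-1.59), the glycine transferase gene Glyat (-0.64) and the acetyltransferase gene Nat1 (-1.93). Of 4 tested deconjugating enzymes Arsb was higher (0.83) and none was lower.

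Of 13 tested exporters and uptake carriers 2 were higher in METTL3 knockouts and 4 lower. Abcc4, which exports conjugates across the basolateral membrane, was at 25.8 ± 13.7 CPM in METTL3 knockouts and 1.70 ± 1.38 CPM in flox/flox livers (SD, n = 4 each, log2 fold change 3.92 ± 0.77 SE, adjusted p = 0.00796 by edgeR), and Abcc1 was higher too (2.14). Abcc6 (-1.33) and the uptake carrier genes Slco2b1 (-1.15), Slco1a4 (-1.90) and Slco1b2 (-1.07) were lower. Of 19 tested receptors and factors none was higher, 6 were lower and 13 did not pass. Of all tested genes 15.2% were called higher and 15.3% lower, 30.5% together. Nr1i3, which encodes CAR, was at 117 ± 104 CPM in the knockouts and 989 ± 282 CPM in flox/flox livers (SD, n = 4 each, log2 fold change -3.09 ± 0.61 SE, adjusted p = 0.00715 by edgeR). Also lower were Nr1i2, which encodes PXR (-1.09), the bile acid receptor gene Nr1h4 (-1.11), Cebpa (-1.26) and Hnf4a (-0.78). Of 15 tested marker targets of those receptors 4 were higher and 3 lower. Cyp3a11 (1.89), known as a PXR target, Cyp2b10 (2.15) and Cyp2c55 (2.67), known as CAR targets, and Srxn1 (0.73), known as an NRF2 target, were higher, while Cyp2b9 (-6.41), Cyp4a10 (-1.78) and Cyp3a13 (-0.75) were lower. Of 3 members known for a male bias in mouse liver Gstp2 and Ugt2b38 were higher, and Gstp1 was not called. The Ugt2b38 call was lost in 8 of 14 alternatives, and the Gstp2 call when the pi genes were summed. Of those known for a female bias the 1 tested, Sult1a1, was lower. Genes of the lists that the table names otherwise are not analysed here.

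In livers labelled RPN11 knockout few conjugation genes changed. The pi-class gene Gstp1 and the estrogen sulfotransferase gene Sult1e1 were higher, and Ugt1a5, Gsta3 and Gstt3 were lower than in RPN11 flox/flox livers. The comparison asks which conjugation transcripts differ between livers with this label and RPN11 flox/flox livers. Of 42 tested members, 2 were called higher, 3 lower and 37 did not pass the threshold, 11.9% beside 4.81% of all 12108 tested genes (1.99% higher and 2.82% lower). The groups did not overlap in 2 members that were higher and 8 that were lower, beside 7.61% and 10.1% of all tested genes and 17.7% for both directions. The median log2 fold change was -0.12 over the tested members and 0.03 over all tested genes. The counts depend on single livers. Without labelled knockout 4, which holds brain transcripts and was the lowest of its group in 24 of the 42 members, 5 members were higher and 5 lower, the 5 named above plus Ugt2b1, Ugt2b37, Sult1d1, Gstm7 and Gstz1. Gstp1 alone was called once knockout 1 or 2, or flox/flox 1, 3 or 4, was omitted, without labelled knockout 3 Gstp1 and 1 lower member remained, and without flox/flox 2 Gstp1, Sult1e1 and 1 lower member remained.

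Gstp1, a transferase with a male bias in mouse liver, was at 514, 592, 525 and 461 CPM in livers labelled RPN11 knockout, against 215, 295, 280.1 and 186 CPM in RPN11 flox/flox livers. All 4 were above all flox/flox livers, 2.16-fold higher on the fitted scale (log2 fold change 1.11 ± 0.16 SE, adjusted p = 0.00681 by edgeR), and the call held under all 14 alternatives, with adjusted p up to 0.046. Its neighbour Gstp2 was at 4.36, 5.66, 5.95 and 4.82 CPM, against 1.69, 2.32, 4.88 and 1.34 CPM in flox/flox livers, with overlap and no call (log2 fold change 1.04 ± 0.39 SE, adjusted p = 0.134 by edgeR). In stretches of 50 bases Gstp1 shares 33.7% and Gstp2 54.3% of their sequence, mostly with each other, and the summed pi genes gave the same result (log2 fold change 1.11, edgeR adjusted p = 0.00686). Sult1e1 was at 4.55, 2.38, 4.33 and 2.10 CPM, against 0.661, 1.24, 0.562 and 0.414 CPM in flox/flox livers. It was higher without overlap at these low levels (log2 fold change 2.21 ± 0.47 SE, adjusted p = 0.0266 by edgeR), and leaving out any of 6 of the 8 livers ended the call (adjusted p up to 0.0972). The start region of Gstp1 is printed because it is the member whose call held under every alternative run, with GCGTG in capitals.
Gstp1, chr19:4037863-4038162, minus strand: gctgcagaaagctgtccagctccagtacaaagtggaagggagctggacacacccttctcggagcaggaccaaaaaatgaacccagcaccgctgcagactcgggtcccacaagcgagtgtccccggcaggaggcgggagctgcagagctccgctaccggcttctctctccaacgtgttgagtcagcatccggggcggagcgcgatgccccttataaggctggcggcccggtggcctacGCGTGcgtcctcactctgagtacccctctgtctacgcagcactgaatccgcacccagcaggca

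Ugt1a5 was at 15, 8.31, 17.6 and 5.27 CPM in livers labelled RPN11 knockout, against 30.9, 24.3, 36.2 and 39.6 CPM in flox/flox livers. It was 2.82-fold lower without overlap (log2 fold change -1.50 ± 0.34 SE, adjusted p = 0.0426 by edgeR), and the call ended in 10 of 14 alternatives. The summed UGT1A level was 298, 174, 313 and 111 CPM, against 402, 363, 419 and 419.8 CPM in flox/flox livers. The sum was lower in every labelled knockout and did not pass the threshold (log2 fold change -0.83, edgeR adjusted p = 0.105). Ugt1a1 was part of that pattern, at 172, 71.6, 174 and 46.1 CPM, against 228, 212, 229 and 253 CPM in flox/flox livers, with no overlap and no call (log2 fold change -0.99 ± 0.41 SE, adjusted p = 0.186 by edgeR). Labelled knockouts 2 and 4 were the lowest. Gsta3 was at 2106, 1953, 2071 and 1389 CPM, against 2693, 2613, 2939 and 3002 CPM in flox/flox livers. It was lower without overlap (log2 fold change -0.57 ± 0.14 SE, adjusted p = 0.0444 by edgeR), and 11 of 14 alternatives ended the call. Gstt3 was at 27.4, 29, 28.8 and 18.3 CPM, against 55.2, 33.5, 53.7 and 81.1 CPM in flox/flox livers. It was 2.14-fold lower, with flox/flox 2 nearest to the labelled knockouts (log2 fold change -1.10 ± 0.24 SE, adjusted p = 0.0349 by edgeR), and 8 of 14 alternatives ended the call. In addition Ugt1a6b, Sult1c2, Gstm7 and Gstz1 were below the flox/flox range in all 4 labelled knockouts without a call.

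**Figure D5:**
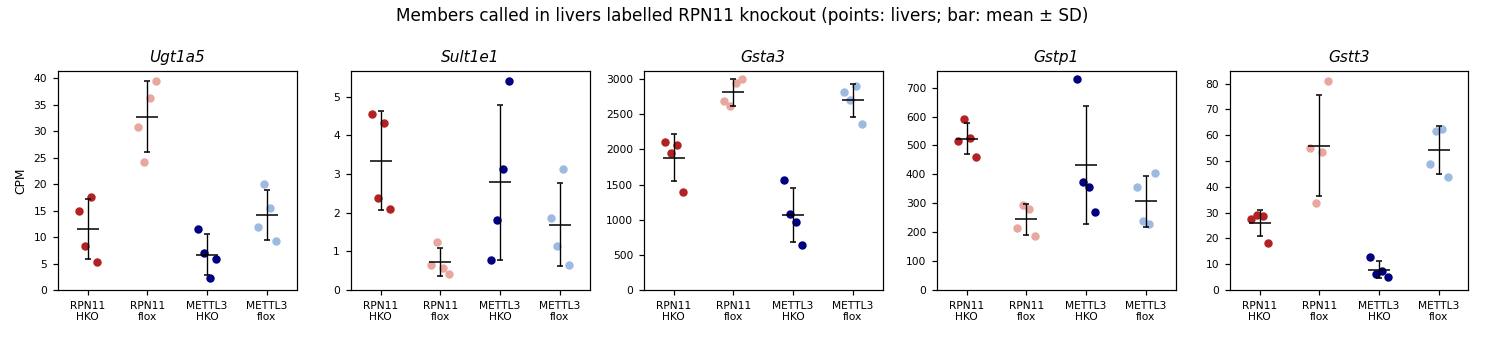
CPM (vertical axes, own scale in each panel) of the 5 members called in livers labelled RPN11 knockout, by group, with 1 point per liver and bars for the mean ± SD of 4 livers. Gstp1 averaged 523 CPM in labelled RPN11 knockouts and 244 CPM in RPN11 flox/flox livers, with no overlap, and overlapped between METTL3 knockout and METTL3 flox/flox livers.

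The related lists held few calls in the RPN11 line, where 4.81% of all genes were called. No gene of the UDP-glucuronic acid, sulfate donor, glutathione, other conjugation or deconjugation lists was called (0 of 4, 8, 11, 14 and 4 tested). Of 13 transporters Abcb1a, which encodes a drug efflux pump, was lower (log2 fold change -1.03 ± 0.22 SE, adjusted p = 0.0266 by edgeR). Of 20 tested receptors and factors 1 was higher and 2 lower: Bcl6, a repressor with male-biased expression, was at 35.9 ± 10.8 CPM in livers labelled RPN11 knockout and 14.2 ± 2.43 CPM in flox/flox livers (SD, n = 4 each, log2 fold change 1.34 ± 0.21 SE, adjusted p = 0.00997 by edgeR). Between the flox/flox groups Bcl6 also differed, at 14.2 ± 2.43 CPM in RPN11 and 65.8 ± 23.9 CPM in METTL3 flox/flox livers (SD, n = 4 each, log2 fold change -2.22 ± 0.31 SE, adjusted p = 0.0389 by edgeR). Nr1i3 was lower, at 348 ± 49.5 CPM in livers labelled RPN11 knockout and 618 ± 139 CPM in flox/flox livers (SD, n = 4 each, log2 fold change -0.81 ± 0.16 SE, adjusted p = 0.0195 by edgeR), and Stat5a was lower (-0.73). Of 15 tested target genes Srxn1 was higher (log2 fold change 0.78 ± 0.14 SE, adjusted p = 0.016 by edgeR), and of the members known for a sex bias only Gstp1, of 3 male-biased and 1 female-biased tested, was called. No hepatocyte, macrophage, stellate, endothelial, cholangiocyte, lymphocyte, erythroid, brain or kidney marker was called, and of 2 tested intestinal markers Fabp2 was lower. The hepatocyte sum was 96634 to 130861 CPM in labelled knockouts and 138405 to 164165 CPM in flox/flox livers, lower in all 4 labelled knockouts. The macrophage sum was 112 to 203 CPM in labelled knockouts and 99.0 to 161 CPM in flox/flox livers, and the stellate sum was 364 to 476 CPM in labelled knockouts and 326 to 374 CPM in flox/flox livers. The endothelial sum was 84.9 to 122 CPM in labelled knockouts and 108 to 137 CPM in flox/flox livers, and the cholangiocyte sum was 96.2, 90.5, 102 and 619.9 CPM in labelled knockouts 1 to 4, the last of them the liver with brain transcripts, and 62.3 to 82.5 CPM in flox/flox livers. Their part in the results was not tested.

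The knockout effects were then set against each other in 1 fit of all 16 livers, as the log2 effect in the RPN11 line minus that in the METTL3 line. Of 43 tested members, 5 differed upward, 6 downward and 32 did not pass the threshold, 25.6% beside 13.1% of all 13118 tested genes (6.96% upward and 6.15% downward). Upward differences, where the METTL3 line had the lower effect, were found for the sulfotransferase genes Sult1a1 (1.70, edgeR adjusted p = 0.000446), Sult1b1 (1.65, edgeR adjusted p = 0.00864) and Sult1d1 (2.28, edgeR adjusted p = 0.00108). The theta genes Gstt1 (1.25, edgeR adjusted p = 0.00376) and Gstt3 (1.66, edgeR adjusted p = 0.013) differed the same way. For Sult1d1 the 4 livers labelled RPN11 knockout were at 701, 597, 679 and 406 CPM, against 458, 433, 444 and 562 CPM in RPN11 flox/flox livers, with no call (log2 fold change 0.34, edgeR adjusted p = 0.215). Sult1a1 was at 527, 735, 501 and 615 CPM in livers labelled RPN11 knockout, against 545, 608, 602 and 789.8 CPM in RPN11 flox/flox livers, with overlap. Downward differences were found for Ugt1a9 (-2.95, edgeR adjusted p = 0.00108), Ugt2b35 (-1.74, edgeR adjusted p = 0.0227) and the mu genes Gstm1 (-1.42, edgeR adjusted p = 0.0082), Gstm2 (-1.15, edgeR adjusted p = 0.0471), Gstm3 (-4.09, edgeR adjusted p = 0.00465) and Gstm4 (-1.30, edgeR adjusted p = 0.00993). Gstm1 was at 566, 812, 604 and 679.7 CPM in livers labelled RPN11 knockout, against 867, 606, 1186 and 1075 CPM in RPN11 flox/flox livers. Gstm3 was at 20.7, 31.9, 22.0 and 30.2 CPM in livers labelled RPN11 knockout, against 18.5, 10.6, 34.9 and 23.4 CPM in RPN11 flox/flox livers, and neither gene was called in the RPN11 line. The Gstm2 difference ended in 14 of 22 alternatives, the Ugt1a9 difference when the UGT1A genes were summed, and the Ugt2b35 difference without labelled RPN11 knockout 2 (edgeR adjusted p = 0.0531), and without METTL3 knockout 1 the upward count was 14. Without both replicate 4 knockouts, a setting chosen after the data were seen, 8 members differed upward and 5 downward. Gsta3 and Gstt3 were called lower in both lines, while over the 11938 genes tested in both 1.84% were called in the same direction and 0.318% in opposite ones. Gsta3 had effects of -1.35 in the METTL3 line and -0.57 in the RPN11 line, and the test of the difference did not pass (log2 0.76, adjusted p = 0.111 by edgeR), while Gstt3 had -2.77 in the METTL3 line and -1.10 in the RPN11 line, a difference past the threshold.

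Control livers of the RPN11 line were also set against those of the METTL3 line. These livers are also the controls of the comparisons above, so the values are not independent of them. Of 41 tested members, 1 was called higher in the RPN11 group and none lower, 2.44% beside 0.319% of all 11905 tested genes (0.244% higher and 0.0756% lower). The groups did not overlap in 4 members that were higher, all of them UGT1A genes, and 1 that was lower, beside 5.1% and 4.02% of all tested genes and 9.12% for both directions. The gene called was Ugt1a5, at 30.9, 24.3, 36.2 and 39.6 CPM in RPN11 flox/flox livers, against 11.9, 20.0, 15.5 and 9.28 CPM in METTL3 flox/flox livers (log2 fold change 1.20 ± 0.22 SE, adjusted p = 0.044 by edgeR). Leaving out METTL3 flox/flox 1 or 3 or RPN11 flox/flox 1, 3 or 4 ended the call. Ugt1a1, Ugt1a6b and Ugt1a9 were also above the METTL3 flox/flox range in every RPN11 flox/flox liver, by log2 fold changes of 0.47, 0.39 and 1.28, and the summed UGT1A level was 402, 363, 419 and 419.8 CPM in RPN11 flox/flox livers, against 312, 256, 307 and 322 CPM in METTL3 flox/flox livers. The Ugt1a5 call in livers labelled RPN11 knockout was made against the flox/flox group with the higher level. The labelled knockouts averaged 11.5 ± 5.72 CPM, METTL3 knockouts 6.67 ± 3.89 CPM, RPN11 flox/flox livers 32.7 ± 6.68 CPM and METTL3 flox/flox livers 14.2 ± 4.67 CPM (SD, n = 4 each). The Ugt1a9 call in METTL3 knockouts was made against the flox/flox group with the lower level. For Ugt1a9 METTL3 knockouts averaged 46.4 ± 11.7 CPM, METTL3 flox/flox livers 6.78 ± 3.37 CPM and RPN11 flox/flox livers 16.5 ± 5.38 CPM (SD, n = 4 each). No SULT or GST gene was called between the flox/flox groups. Over all genes 29 were higher and 9 lower by edgeR, and 1962 had an unadjusted p under 0.05.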

How the data were processed

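Messenger RNA of 16 mouse livers was measured by RNA-seq. Per the submitters' processing notes, cutadapt 1.9.3, HISAT2 2.0.4, HTSeq 0.9.1 and edgeR were used with the mm10 build, and the deposited values are read counts per gene from the authors. The sources used here name no annotation, counting mode or strandedness. The authors' 16 normalized columns were not used.

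Each comparison was fitted with edgeR 4.0.16 in R 4.3.3 (filterByExpr, TMM, robust quasi-likelihood test, Benjamini-Hochberg adjustment over all tested genes, threshold 0.05) on its own 8 livers, and the difference between knockout effects on all 16. Depth was 15980959 to 29029592 counts per liver. A count of 0 allows up to 3 counts, which covers counting error only. Alternatives were DESeq2 1.42.0, RLE size factors, no filter, a replicate block, counts summed per locus, 1 fit of all livers, and each liver left out. The script was tested on simulated data.

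Exon coordinates and shared stretches of 50 bases came from GENCODE M21, where all 52 members were found by identifier. Promoter windows came from RefSeq (GRCm38.p6).

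Members and lists were chosen with earlier results of these data known. Named genes are every called member, the member with the highest mean of each family, Psmd14, Mettl3 and up to 4 called genes with the lowest p of each list and line, and any other gene was named after its values were seen. Of the receptor list, 1 gene is not reported here.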

Additional observations from a re-analysis of the deposited data

Results flagged for a closer look

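In 7 of 116 tested member and group combinations, 1 liver stood apart from the other 3 of its group by Dixon's criterion, which chance meets in about 1 of 20 groups. Labelled RPN11 knockout 4, one of the livers with brain transcripts, was the lowest of its group for Ugt2b5 (593 CPM, others 874 to 900.5 CPM), Gstt3 (18.3 CPM, others 27.4 to 29 CPM) and Gstz1 (552 CPM, others 710 to 739 CPM). METTL3 knockout 3 was the highest of its group for Gstp2 (12.8 CPM, others 4.36 to 5.04 CPM). Among flox/flox livers, RPN11 flox/flox 3 was the highest for Ugt1a9 (24.6 CPM, others 13.3 to 14.3 CPM), RPN11 flox/flox 4 the highest for Gstz1 (1022 CPM, others 897 to 912 CPM), and METTL3 flox/flox 2 the lowest for Ugt3a2 (445 CPM, others 539.7 to 544 CPM).

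The knockout effects differed between the lines for 11 members by the test of the difference itself, given as the log2 effect in the RPN11 line minus that in the METTL3 line. The difference was 1.70 for Sult1a1, 1.65 for Sult1b1, 2.28 for Sult1d1, 1.25 for Gstt1 and 1.66 for Gstt3. It was -2.95 for Ugt1a9, -1.74 for Ugt2b35, -1.42 for Gstm1, -1.15 for Gstm2, -4.09 for Gstm3 and -1.30 for Gstm4.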

How the results depend on the processing

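In the METTL3 line, leaving out single livers gave 7 to 9 members higher, 11 to 19 lower, 1383 to 2451 genes higher and 1341 to 2481 lower, and a Mettl3 change of -1.36 to -1.23. Without the filter or with DESeq2 the median of all genes in that line was 0.168 or 0.179, a shift of over 0.1. In the RPN11 line, leaving out single livers gave 1 to 5 members higher, 0 to 5 lower, 37 to 447 genes higher and 18 to 494 lower. There 241 genes were higher and 342 lower, against 587 and 713 by DESeq2, 149 and 201 without the filter, 160 and 183 in 1 fit of all livers, and 150 and 226 with the replicate block. Members called lower in that line were 6 by DESeq2, 0 without the filter, 1 in 1 fit of all livers (where 1 was higher) and 1, Ugt3a1, with the replicate block. In the difference, 11 members were higher by DESeq2 and 8 without both replicate 4 knockouts, and leaving out livers gave 5 to 14 members higher, 4 to 6 lower, 585 to 1613 genes higher and 510 to 1050 lower. Between flox/flox groups, 29 genes were higher and 9 lower, against 255 and 142 by DESeq2, 104 and 40 without the filter, 4 and 3 with the replicate block and 56 higher with RLE size factors. Members higher there were 0 on locus sums, 3 by DESeq2 and 2 without the filter, and leaving out livers gave 0 to 2 members and 1 to 194 genes higher and 0 to 88 genes lower. The causes were not tested.

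Changes near 0 turned sign. Psmd14 was at -0.011 without the filter, -0.00487 by DESeq2, -0.00189 with the replicate block, -0.00587 in 1 fit of all livers and -0.078 to 0.082 with single livers left out. Sult1b1 in the RPN11 line was at -0.00052 with RLE size factors, -0.011 without the filter, -0.0058 by DESeq2, -0.00401 with the replicate block, -0.00698 in 1 fit of all livers and -0.13 to 0.13 with single livers left out. Leaving out single livers also moved RPN11 line changes across 0, over -0.39 to 0.091 for Ugt1a9, -0.10 to 0.10 for Ugt2a3, -0.31 to 0.095 for Ugt2b35, -0.084 to 0.31 for Ugt2b38, -0.20 to 0.036 for Sult1a1 and -0.40 to 0.14 for Sult2a7. In the METTL3 line Ugt1a9 gave way to the locus sum of -0.38, and Ugt2b5 was at -0.046 with the replicate block and -0.24 to 0.20 with single livers left out.

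The labels do not say that replicate numbers mark a shared litter or day. Deviations of same-numbered livers correlated at -0.0513 to -0.00728 in the RPN11 line, against -0.0755 to 0.0997 for livers of different numbers. In the METTL3 line same-numbered livers correlated at 0.0337 to 0.228, against -0.137 to 0.0903 for different numbers. All same-numbered values of the METTL3 line were above 0, and the ranges overlapped, so these values do not decide whether its livers were paired. The main fits did not take the numbers as pairs. With the replicate block 10 members were higher and 15 lower in the METTL3 line, and between flox/flox groups Ugt1a9 was called in place of Ugt1a5.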

Other observations

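Members at low levels had their highest readings in single livers. Sult4a1, a sulfotransferase known from brain and too low to be tested, was at 5.19 CPM in labelled RPN11 knockout 4 and 2.02 CPM in METTL3 knockout 4, the livers with brain transcripts. Ugt1a7c, tested and not called in either line, was at 5.39 CPM in labelled RPN11 knockout 4 and 4.21 CPM in METTL3 knockout 4.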
